A study of Mus musculus with 12 samples.

Results

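E proteins are transcription factors with a basic helix-loop-helix (bHLH) domain that bind DNA as dimers at the short sequence called the E-box. In the thymus they drive T cell commitment, recombination of antigen receptor genes and the arrest of growth at checkpoints. Id proteins have the dimerisation domain but no DNA-binding domain, so they hold E proteins off DNA. TAL1 and LYL1 are bHLH factors that also dimerise with E proteins, LMO2 bridges them to other factors, and all are switched on aberrantly in subsets of T-ALL, the acute lymphoblastic leukaemia that arises from T cell precursors. The 10 genes described here are the E protein genes Tcf3 (E2A), Tcf12 (HEB) and Tcf4 (E2-2), the inhibitor genes Id1, Id2 and Id3, and Tal1, Lyl1, Lmo2 and Hhex, a homeobox gene active downstream of LMO2 in T-ALL models. They were taken by symbol from the 23174 genes of each deposited table, and each symbol stood on 1 line. Tcf7l1, the other gene that has been called Tcf3, had a line of its own, so Tcf3 was read as E2A.

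RNA was measured in 12 samples of mouse T-ALL on the C57BL/6 background, all carrying the Notch1-deltaE transgene, an activated form of Notch1. In the ex vivo experiment 3 samples of T-ALL cells were treated with AMD3100, a small-molecule inhibitor of the chemokine receptor CXCR4, and 3 were treated with vehicle. In the other experiment, 3 primary tumours with a Cxcr4 knockout (numbered 5, 7 and 8) were set against 3 Cxcr4+/+ tumours (numbered 1, 2 and 4). The labels state for every sample that spleen leukaemia cells were kept on OP9 stromal cells, whose division was blocked with mitomycin C, in medium with 5 ng/ml of IL-7. Whether the primary tumours were cultured before RNA was taken is not settled by the labels. Of the stromal genes read, Col1a2, Col3a1, Sparc and Cxcl12 were among those listed at 0 in all 6 tumours. Others were present, with Pdgfrb between 0.184 and 11.8 FPKM and Fn1 between 0 and 13.8 FPKM over the tumours. The presence of OP9 cells in the tumour samples was not tested. The sources used here give neither the dose and time of AMD3100 nor the promoter of the transgene. Nothing in the labels ties a sample to its own animal or culture. The p-values set a difference between groups against the scatter of these samples. What share of that scatter is technical is not known.

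The authors deposited FPKM, a read count divided by transcript length and by library size, so levels can be compared between genes and within a table. Steps between low values gave the relative depth of the libraries. Against the first vehicle sample, depth was 1.06 to 1.25 with AMD3100 and 0.757 to 0.908 in the other vehicle samples. Against Cxcr4+/+ tumour 1, depth was 0.329 to 0.707 in the knockout tumours and 0.718 to 0.822 in the other Cxcr4+/+ tumours. Where a member's values were whole multiples of 1 read, within 0.02 of a read, the fewest reads that give its values are stated, and a multiple of them cannot be told apart. An exact 0 is written as listed at 0, because it can stand for an estimate that failed: Gapdh, a gene used by every cell, reached at most 0.179 FPKM ex vivo and 0.532 FPKM in the tumours. In the tumours haemoglobin genes, which mark red cell precursors, took 20.4%, 2.76% and 6.55% of all FPKM in knockout tumours 5, 7 and 8, and 1.29%, 5.48% and 23.0% in Cxcr4+/+ tumours 1, 2 and 4. Ex vivo the share was at most 0.000139%. In bulk RNA, fewer cells of a type and less RNA per cell cannot be told apart. The targeted gene Cxcr4 had 23.2, 78.9 and 21.9 FPKM in the knockout tumours, against 241, 155 and 206 FPKM in the Cxcr4+/+ tumours, so the groups did not overlap.

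The sequences below are the 250 bases before the start of transcription of the members on which the results turn, from RefSeq on build GRCm38.p6, which is not the build of the deposited files. Id2 and Tcf3 are the members that passed the test with AMD3100 when same-numbered samples were paired, and not without pairing. Id3 is an inhibitor that passed in neither fit, and Tal1 and Lyl1 are oncogenes whose levels differed widely between tumours. The promoter table held an entry for 7 of the 10 members. Capitals mark E-boxes, searched as CANNTG on both strands. The Id2 window is on the minus strand at chr12:25096093-25096342, Tcf3 on the minus strand at chr10:80433636-80433885, Id3 on the plus strand at chr4:136143572-136143821, Tal1 on the plus strand at chr4:115056176-115056425 (the first of 2 windows listed for it) and Lyl1 on the plus strand at chr8:84701207-84701456.
Id2: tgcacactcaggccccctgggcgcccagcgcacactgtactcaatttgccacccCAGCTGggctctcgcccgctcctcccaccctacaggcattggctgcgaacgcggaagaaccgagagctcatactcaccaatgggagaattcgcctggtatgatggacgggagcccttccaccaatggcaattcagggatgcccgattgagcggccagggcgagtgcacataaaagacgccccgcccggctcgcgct
Tcf3: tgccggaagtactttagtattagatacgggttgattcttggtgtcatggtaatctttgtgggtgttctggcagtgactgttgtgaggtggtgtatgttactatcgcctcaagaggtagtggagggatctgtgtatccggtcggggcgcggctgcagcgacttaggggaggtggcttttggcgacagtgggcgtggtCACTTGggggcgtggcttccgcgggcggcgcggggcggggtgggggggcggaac
Id3: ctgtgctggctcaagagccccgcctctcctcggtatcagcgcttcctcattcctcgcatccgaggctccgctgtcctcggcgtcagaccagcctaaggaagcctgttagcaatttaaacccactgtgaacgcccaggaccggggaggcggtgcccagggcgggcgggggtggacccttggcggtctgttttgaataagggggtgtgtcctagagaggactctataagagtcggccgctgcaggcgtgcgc
Tal1: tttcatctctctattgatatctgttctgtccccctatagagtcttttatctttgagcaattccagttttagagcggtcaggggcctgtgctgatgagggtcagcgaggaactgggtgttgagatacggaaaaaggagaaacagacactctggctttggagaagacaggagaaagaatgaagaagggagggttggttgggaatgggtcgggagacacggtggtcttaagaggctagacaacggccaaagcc
Lyl1: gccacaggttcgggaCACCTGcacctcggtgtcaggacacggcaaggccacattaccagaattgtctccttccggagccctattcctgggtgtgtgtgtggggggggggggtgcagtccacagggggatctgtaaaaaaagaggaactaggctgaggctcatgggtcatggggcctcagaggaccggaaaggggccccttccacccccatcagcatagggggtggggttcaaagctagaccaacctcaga

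The Id2 window held 1 E-box, CAGCTG, 196 bases before the start. The Tcf3 window held CACTTG 54 bases before the start, and the Lyl1 window held CACCTG 235 bases before it. The Id3 and Tal1 windows held none. An E-box occurs in 66.2% of the 32817 windows of this length in the table, so its presence is common. GATA motifs, searched as AGATAA, as AGATAG, as TGATAA and as TGATAG on both strands, occur in 26.6% of windows, and the Tal1 window held 1, written TTATCT on the strand shown, 205 bases before the start. GGCGCC, a sequence found in BMP response elements, occurs in 9.59% of windows and stands once in the Id2 window, 231 bases before the start. A match of letters is a description of these windows and says nothing of binding in the cells.

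Ex vivo, the leukaemia cells had much E protein mRNA, mostly Tcf12 and Tcf3, with or without AMD3100. Tcf3, Tcf12 and Id2 were higher in each AMD3100 sample than in any vehicle sample. Tcf3 and Id2 passed the test with same-numbered samples paired and not without pairing, and Tcf12 passed in neither fit. Id1 and Id3 split the samples by their number and not by treatment, being high in samples 1 and 2 and low in sample 3 of both groups. Tal1, Lmo2 and Hhex were at or near 0, and Lyl1 was above 1 FPKM in the samples numbered 3 and below it in the others.

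**Figure D1:**
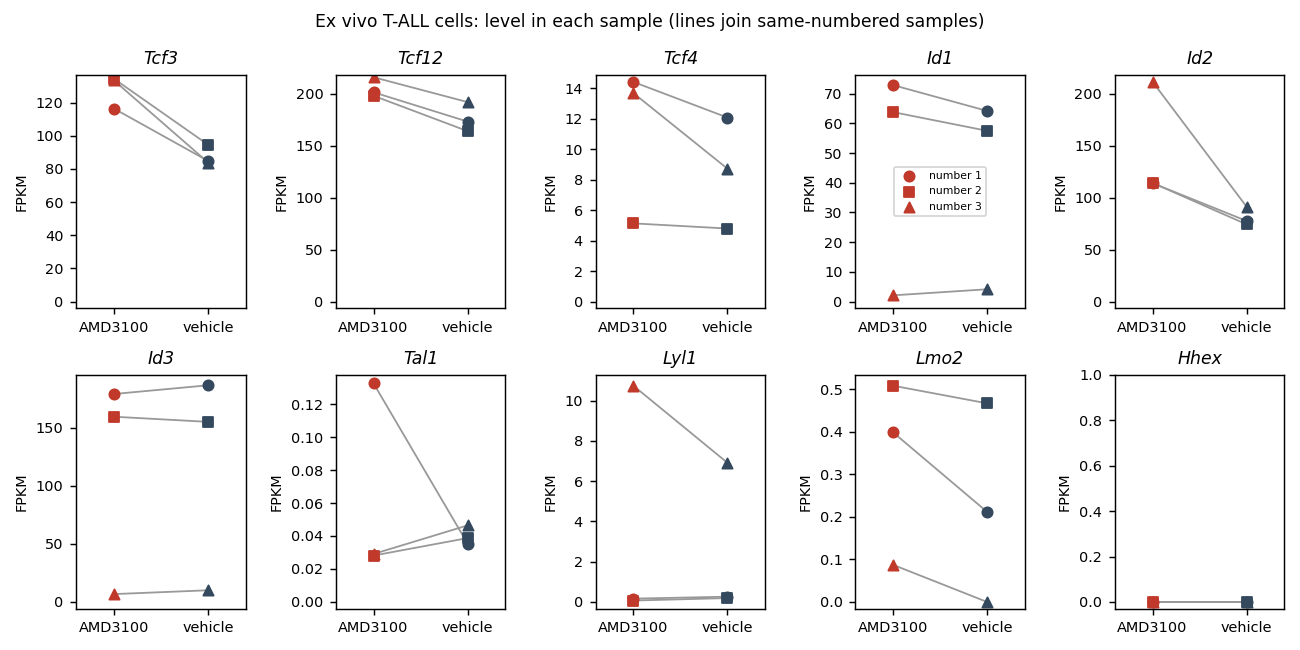
FPKM of the 10 members in each ex vivo sample, with AMD3100 on the left and vehicle on the right of each panel, linear axes of different height, and grey lines joining samples with the same number. All lines of Tcf3, Tcf12 and Id2 are higher at the AMD3100 end, while Id1, Id3 and Lyl1 separate sample 3 from samples 1 and 2 in both groups.

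Tcf3 encodes E12 and E47, the E2A proteins. It had 116, 134 and 133 FPKM in AMD3100 samples 1, 2 and 3, against 84.8, 94.5 and 83.8 FPKM in vehicle samples 1, 2 and 3. Every AMD3100 sample lay above every vehicle sample, and the difference was of like size in the 3 pairs (log2 0.45, 0.50 and 0.66). Tcf3 averaged 128 ± 10.1 FPKM with AMD3100 and 87.7 ± 5.93 FPKM with vehicle (SD, n = 3 each). The change on the log2(FPKM + 1) scale was 0.54 (SE 0.094, limma adjusted p = 0.0614 without pairing). With the replicate number as a block the SE was 0.072 and the limma adjusted p was 0.0198. With 1 pair left out the paired call was lost without pair 1 (limma adjusted p = 0.10) and without pair 2 (0.0780), and kept without pair 3 (0.0315).

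Id2, an inhibitor induced in many lymphocytes, had 114, 114 and 212 FPKM in AMD3100 samples 1, 2 and 3, against 77.7, 74.4 and 91.3 FPKM in vehicle samples 1, 2 and 3. These rest on 930, 1097 and 1965 reads with AMD3100 and on 596, 518 and 530 reads with vehicle. The groups did not overlap, and AMD3100 sample 3 stood above the rest. Id2 averaged 147 ± 56.3 FPKM with AMD3100 and 81.1 ± 8.95 FPKM with vehicle (SD, n = 3 each). Its change was 0.79 on the log2 scale (SE 0.26, limma adjusted p = 0.158 without pairing), and with pairing the SE was 0.14 and the limma adjusted p 0.0280. The paired call was lost without pair 1 (limma adjusted p = 0.10) and without pair 2 (0.0822), and kept without pair 3 (0.0289).

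Tcf12 encodes HEB, the most abundant E protein mRNA in these cells. Its level was 202, 198 and 216 FPKM in AMD3100 samples 1, 2 and 3, against 173, 164 and 192 FPKM in vehicle samples 1, 2 and 3. It was higher with AMD3100 in 3 of 3 pairs, as were 30.8% of all genes, and the groups did not overlap, but the gap between them was narrow. Tcf12 averaged 205 ± 9.49 FPKM with AMD3100 and 176 ± 14.3 FPKM with vehicle (SD, n = 3 each), a log2 change of 0.22 (SE 0.089, limma adjusted p = 0.232; 0.0710 with pairing). Tcf4, the E protein best known from plasmacytoid dendritic cells and B cells, was the least abundant. It had 14.4, 5.14 and 13.7 FPKM in AMD3100 samples 1, 2 and 3, against 12.1, 4.80 and 8.73 FPKM in vehicle samples 1, 2 and 3. The samples numbered 2 were the lowest in both groups, which overlapped (log2 change 0.31, SE 0.46, limma adjusted p = 0.786; 0.152 with pairing).

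Without pairing limma called 0 of the 7 members that passed the filter of a mean of 1 FPKM, and 0.127% of all genes tested. At an unadjusted p under 0.05 it took 3 members (Tcf3, Tcf12 and Id2) and 21.5% of all genes. With pairing it called 2 of the 7, both higher, where 9.96% of all genes were called higher and 9.92% lower. Tcf3, Tcf12 and Id2 are 3 members whose AMD3100 values all lay above the vehicle values, a pattern found in 13.1% of all genes. Malat1, a long nuclear RNA, also lay higher with AMD3100, with 527, 580 and 920 FPKM in AMD3100 samples 1, 2 and 3, against 178, 214 and 334 FPKM in vehicle samples 1, 2 and 3 (log2 change 1.48, paired limma adjusted p = 0.0138). Its part in the member results was not tested. With each sample corrected for transcript length and pairing kept, the log2 change was 0.84 for Id2 (limma adjusted p = 0.0313) and 0.45 for Tcf3 (0.0278).

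Id1 and Id3, inhibitors that BMP and antigen receptor signals induce, differed widely between ex vivo samples. Id1 stood at 72.9, 63.8 and 2.12 FPKM in AMD3100 samples 1, 2 and 3, against 64.2, 57.5 and 4.16 FPKM in vehicle samples 1, 2 and 3. Id3 stood at 179, 160 and 6.76 FPKM in AMD3100 samples 1, 2 and 3, against 187, 155 and 10.1 FPKM in vehicle samples 1, 2 and 3. Sample 3 was low in both groups, and the treatments overlapped. The mean of samples 1 and 2 was 32.3 times that of sample 3 for Id1 with AMD3100 and 14.6 times with vehicle. For Id3 the ratio was 25.1 with AMD3100 and 17.0 with vehicle. The low Id1 values rest on 13 reads with AMD3100 and 16 with vehicle, and those of Id3 on 44 and 41 reads. The log2 change with AMD3100 was -0.13 for Id1 (SE 1.57, limma adjusted p = 0.985; SE 0.20 and 0.653 with pairing) and -0.18 for Id3 (SE 1.63, limma adjusted p = 0.978; SE 0.12 and 0.335 with pairing).

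Lyl1 ran the other way round among the same samples. It had 0.164, 0.0697 and 10.7 FPKM in AMD3100 samples 1, 2 and 3, against 0.261, 0.192 and 6.91 FPKM in vehicle samples 1, 2 and 3. Sample 3 was high in both groups, with 149 reads with AMD3100 and 60 with vehicle, where the other samples had 1 to 3 reads. Treatments overlapped (log2 change 0.10, SE 1.20, limma adjusted p = 0.986; SE 0.22 and 0.767 with pairing). The samples numbered 3 also carried Ly6d at 517 FPKM with AMD3100 and 192 FPKM with vehicle, against 0.945 to 7.00 FPKM in the other samples, and Ccr9, a chemokine receptor of thymocytes, at 419 FPKM with AMD3100 and 242 FPKM with vehicle, against 0.811 to 1.43 FPKM in the others. Both genes were singled out after their values were seen.

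The culture holds OP9 stroma, so its markers were read beside Id1 and Id3. The 11 stromal markers without Thy1 summed to 176, 205 and 25.3 FPKM in AMD3100 samples 1, 2 and 3, against 159, 200 and 15.2 FPKM in vehicle samples 1, 2 and 3, so the sum was low in the same samples as Id1 and Id3. In the samples numbered 1 and 2 most of it was Pdgfrb, a growth factor receptor, with 144, 186 and 11.2 FPKM in AMD3100 samples 1, 2 and 3, against 136, 160 and 4.2 FPKM in vehicle samples 1, 2 and 3. The other 10 markers summed to 31.8, 18.8 and 14.1 FPKM with AMD3100 and to 23.6, 39.6 and 11 FPKM with vehicle. Of the 11 markers, 2 or 3 were listed at 0 in each sample, with Dcn and Lum, fibroblast genes, at 0 in all. Col1a1, a collagen gene, stayed between 0.655 and 3.11 FPKM. Cxcl12 averaged 10.8 ± 4.41 FPKM with AMD3100 and 8.97 ± 4.59 FPKM with vehicle (SD, n = 3 each). Fn1 averaged 5.69 ± 2.00 FPKM with AMD3100 and 9.08 ± 5.76 FPKM with vehicle. The part of stroma in the levels of Id1 and Id3 was not tested. Singling out Pdgfrb was done after its values were seen. Summed over 10 T cell markers, the samples lay between 4899 and 5121.9 FPKM with AMD3100 and between 5295 and 5590 FPKM with vehicle.

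Tal1 had 0.133, 0.0281 and 0.0291 FPKM in AMD3100 samples 1, 2 and 3, against 0.0352, 0.0388 and 0.0465 FPKM in vehicle samples 1, 2 and 3. These rest on 4, 1 and 1 reads with AMD3100 and 1, 1 and 1 with vehicle. Lmo2 had 0.399, 0.508 and 0.0874 FPKM with AMD3100 (4, 6 and 1 reads). With vehicle it had 0.212 and 0.466 FPKM in samples 1 and 2 (2 and 4 reads) and was listed at 0 in sample 3. Hhex was listed at 0 in all 6 samples. These 3 genes were under the filter and were not tested. At this depth no difference was detectable in them.

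The summed FPKM of the 3 E proteins was 332, 338 and 363 in AMD3100 samples 1, 2 and 3, against 270, 263 and 285 in vehicle samples 1, 2 and 3. Every AMD3100 sample was above every vehicle sample. Tcf3 and Tcf12, which each lay that way already, make up most of the sum, so this is no separate result. Tcf12 made up 58.7% to 60.6% of the sum with AMD3100 and 62.3% to 67.5% with vehicle, and Tcf3 35.0% to 39.8% with AMD3100 and 29.4% to 35.9% with vehicle. The Id sum was 366, 338 and 221 FPKM with AMD3100 in samples 1, 2 and 3, against 329, 287 and 105 FPKM with vehicle. The composition of the Id sum differed by sample number. In the samples numbered 3, Id2 was 96.0% of it with AMD3100 and 86.5% with vehicle, while in the samples numbered 1 and 2 Id3 was the largest item, at 47.3% to 48.9% with AMD3100 and 54.1% to 56.8% with vehicle. The Id sum over the E protein sum was 1.10, 1.00 and 0.608 with AMD3100, against 1.22, 1.09 and 0.371 with vehicle, and the groups overlapped.

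**Figure D2:**
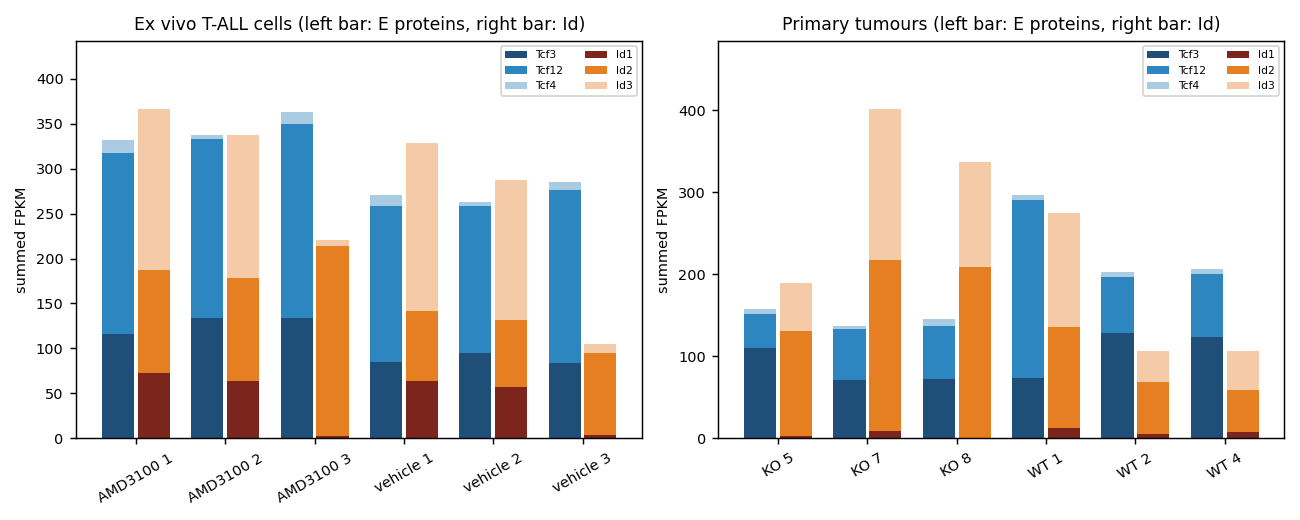
Summed FPKM of the E protein genes (left bar, blue) and the Id genes (right bar, red and orange) in each sample, coloured by gene, ex vivo on the left and in the primary tumours on the right. The E protein sum is 332 to 363 FPKM with AMD3100 and 263 to 285 FPKM with vehicle, and 137 to 157 FPKM in knockout tumours and 203 to 297 FPKM in Cxcr4+/+ tumours.

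In the primary tumours none of the 10 members passed the test between genotypes. Nor did Cxcr4, the targeted gene itself (log2 change -2.49, SE 0.51, limma adjusted p = 0.986). Failing this test is therefore no sign that a gene was unchanged. Id2 was higher, and Tcf12 lower, in each Cxcr4 knockout tumour than in any Cxcr4+/+ tumour. Tal1, Lmo2 and Lyl1, near 0 or low ex vivo, ranged up to 261, 278 and 66.2 FPKM, and Tal1 and Lmo2 were highest in the tumours with most haemoglobin mRNA. All 10 genes passed the filter here, and 0.0372% of all genes tested were called. At an unadjusted p under 0.05 limma took 1 member (Id2) and 4.28% of all genes. Groups did not overlap for 4.01% of all genes upward and 5.20% downward.

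**Figure D3:**
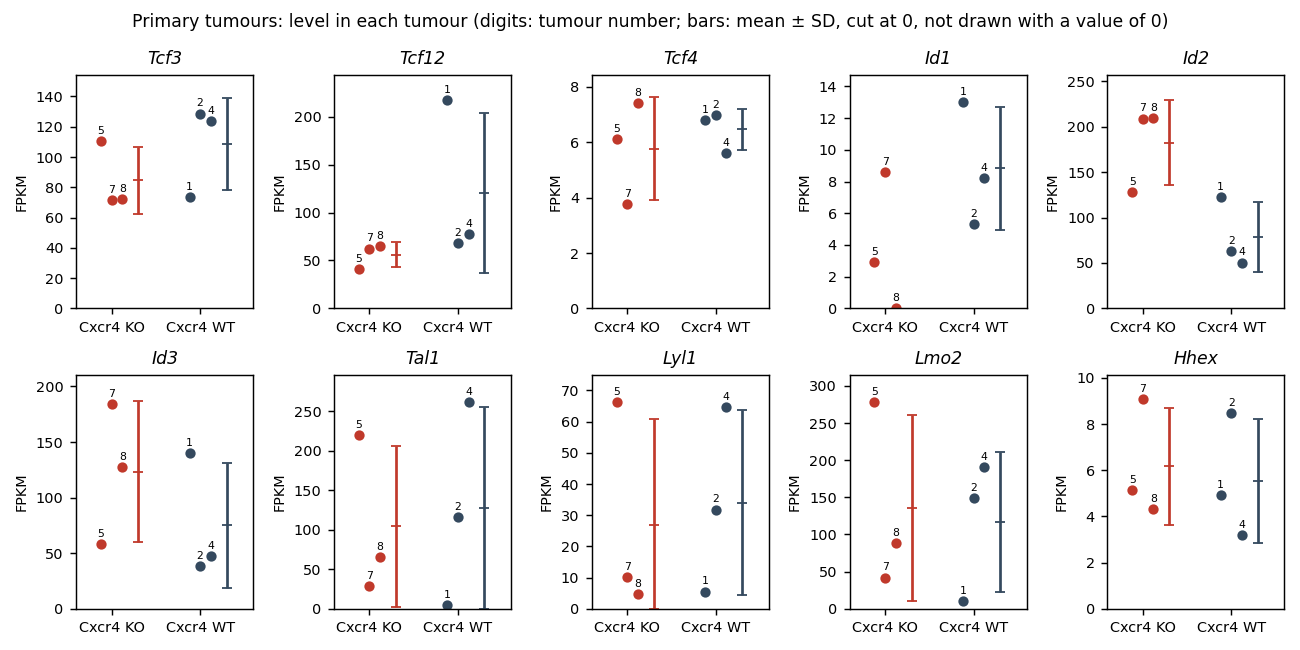
FPKM of the 10 members in each primary tumour, Cxcr4 knockout on the left (red) and Cxcr4+/+ (WT) on the right (dark blue) of each panel, with the tumour number at each point and the mean ± SD beside it (cut at 0, and not drawn for a group with a value of 0). Id2 lies higher in the knockout tumours and Tcf12 lower without overlap, and the other 8 members overlap.

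Id2 had 128, 209 and 209 FPKM in knockout tumours 5, 7 and 8, against 122, 63.5 and 50.5 FPKM in Cxcr4+/+ tumours 1, 2 and 4. The reads behind these were 1001, 1395 and 760 in knockout tumours, and 1351, 576 and 400 in Cxcr4+/+ tumours. The groups did not overlap, but knockout tumour 5 and Cxcr4+/+ tumour 1 were close. Id2 averaged 182 ± 46.6 FPKM in knockout and 78.8 ± 38.3 FPKM in Cxcr4+/+ tumours (SD, n = 3 each). The log2 change was 1.27 (SE 0.40, limma adjusted p = 0.986; 0.0158 before adjustment). With the haemoglobin share as a covariate in limma the change was 1.38 (SE 0.21, adjusted p = 0.116).

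Tcf12 had 40.9, 62.3 and 65.1 FPKM in knockout tumours 5, 7 and 8, against 217, 67.8 and 77.1 FPKM in Cxcr4+/+ tumours 1, 2 and 4. Cxcr4+/+ tumour 1 stood far above all others, and the remaining Cxcr4+/+ tumours were just above the highest knockout tumour. Tcf12 averaged 56.1 ± 13.3 FPKM in knockout and 121 ± 83.5 FPKM in Cxcr4+/+ tumours (SD, n = 3 each), a log2 change of -0.91 (SE 0.48, limma adjusted p = 0.986). Without Cxcr4+/+ tumour 1 the change was -0.39 (SE 0.31, limma adjusted p = 0.667). Tcf3 overlapped, with 110, 71.3 and 72.4 FPKM in knockout tumours 5, 7 and 8, against 73.7, 129 and 124 FPKM in Cxcr4+/+ tumours 1, 2 and 4 (log2 change -0.34, SE 0.34, limma adjusted p = 0.986). Tcf4 stayed low, at 6.12, 3.76 and 7.43 FPKM in knockout tumours and 6.81, 6.98 and 5.62 FPKM in Cxcr4+/+ tumours (log2 change -0.18, SE 0.38, limma adjusted p = 0.995).

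Id3 had 57.9, 184 and 127 FPKM in knockout tumours 5, 7 and 8, against 140, 38.2 and 47.3 FPKM in Cxcr4+/+ tumours 1, 2 and 4. Cxcr4+/+ tumour 1 lay between the higher knockout tumours, so the groups overlapped (log2 change 0.80, SE 0.60, limma adjusted p = 0.986). Id1 was low in every tumour. It had 2.90 and 8.59 FPKM in knockout tumours 5 and 7 (15 and 38 reads) and was listed at 0 in knockout tumour 8. The Cxcr4+/+ tumours had 13.0, 5.33 and 8.20 FPKM (95, 32 and 43 reads). Knockout tumour 8, listed at 0, was the shallowest library, in which 3 reads would amount to 1.25 FPKM (log2 change -1.48, SE 0.82, limma adjusted p = 0.986). Hhex was measured in all tumours, at 5.15, 9.07 and 4.32 FPKM in knockout tumours, against 4.94, 8.49 and 3.18 FPKM in Cxcr4+/+ tumours, from 23 to 113 reads. Its groups overlapped almost fully (log2 change 0.16, SE 0.47, limma adjusted p = 0.998).

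The E protein sum was 157, 137 and 145 FPKM in knockout tumours 5, 7 and 8, against 297, 203 and 207 FPKM in Cxcr4+/+ tumours 1, 2 and 4. The Id sum over the E protein sum was 1.20, 2.92 and 2.32 in knockout tumours, against 0.926, 0.526 and 0.513 in Cxcr4+/+ tumours, without overlap for either quantity. The ratio averaged 2.15 ± 0.874 in knockout and 0.655 ± 0.235 in Cxcr4+/+ tumours (SD, n = 3 each). No test is given for these sums, whose members were chosen with results known. The tumour of the lowest ratio among the knockouts, tumour 5, was the one with most haemoglobin mRNA among them.

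**Figure D4:**
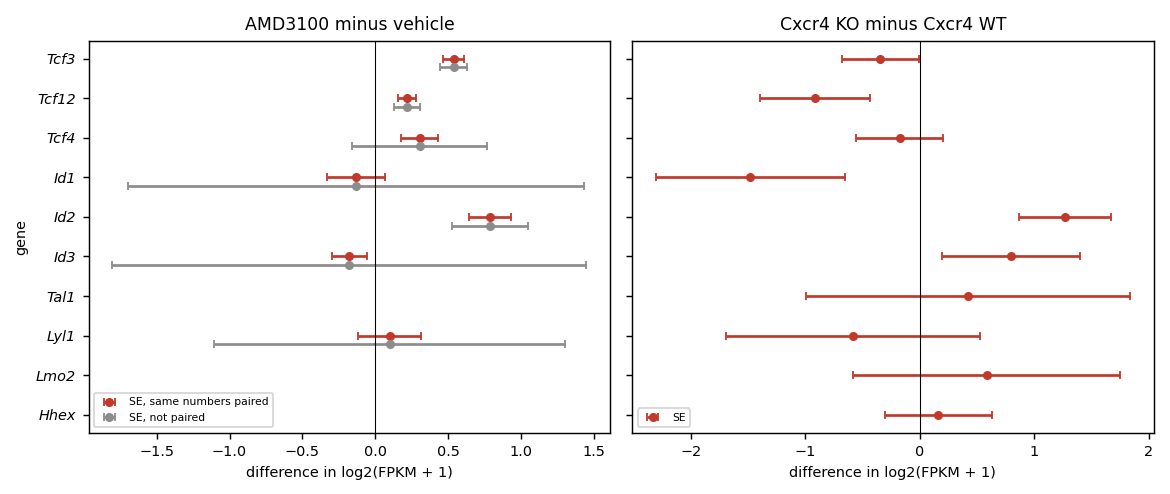
Difference in log2(FPKM + 1) of each tested member, with bars of 1 SE, for AMD3100 minus vehicle (left, red with same-numbered samples paired and grey without) and for Cxcr4 knockout minus Cxcr4+/+ (right). Id2 lies at 0.79 ex vivo and 1.27 in tumours, and Tcf12 at 0.22 ex vivo and -0.91 in tumours, while pairing narrows the bars of Id1, Id3 and Lyl1 the most.

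Tal1, a bHLH factor that blood progenitors and red cell precursors use in normal life, had 220, 28.2 and 65.1 FPKM in knockout tumours 5, 7 and 8, against 4.79, 116 and 261 FPKM in Cxcr4+/+ tumours 1, 2 and 4. Lmo2, its LIM-domain partner, had 278, 41.8 and 88.2 FPKM in knockout tumours, against 9.93, 149 and 191 FPKM in Cxcr4+/+ tumours. Both were lowest in Cxcr4+/+ tumour 1 and high in knockout tumour 5 and Cxcr4+/+ tumour 4, so the genotypes overlapped. The log2 change was 0.42 for Tal1 (SE 1.41, limma adjusted p = 0.998) and 0.59 for Lmo2 (SE 1.17, limma adjusted p = 0.995). Lyl1 had 66.2, 10.1 and 4.61 FPKM in knockout tumours (772, 101 and 25 reads), against 5.51, 31.8 and 64.6 FPKM in Cxcr4+/+ tumours (91, 431 and 766 reads). It was high in the same tumours 5 and 4 and also overlapped (log2 change -0.58, SE 1.11, limma adjusted p = 0.995).

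Over the 6 tumours the log2 level of Tal1 followed the log2 haemoglobin share with a Pearson r of 0.954 (exact permutation p = 0.00417, adjusted over 20 relations 0.0278) and a Spearman rho of 0.943 (exact permutation p = 0.0167, adjusted 0.111). Lmo2 did so with an r of 0.929 (exact permutation p = 0.00556, adjusted 0.0278) and a rho of 0.886 (exact permutation p = 0.0333, adjusted 0.167). Without Cxcr4+/+ tumours 1 and 4, the samples farthest out on that axis, r was 0.912 for Tal1 and 0.917 for Lmo2. The rank relations did not pass after adjustment. Against the log2 share of T cell markers, Tal1 had an r of -0.944 (exact permutation p = 0.00139, adjusted 0.0278) and a rho of -1 (exact permutation p = 0.00278, adjusted 0.0556), and r was -0.923 without those tumours. Lmo2 had an r of -0.935 (exact permutation p = 0.00278, adjusted 0.0278) and a rho of -0.943 (exact permutation p = 0.0167, adjusted 0.111), and r was -0.923 without them. For Lyl1 r was 0.810 against haemoglobin (exact permutation p = 0.0611, adjusted 0.175) and rho was 0.6 (exact permutation p = 0.242, adjusted 0.483). Against T cell markers Lyl1 had an r of -0.939 (exact permutation p = 0.0389, adjusted 0.156) and a rho of -0.771 (exact permutation p = 0.103, adjusted 0.343), and r was -0.929 without the same tumours. Tcf3 had an r of -0.928 against T cell markers (exact permutation p = 0.0792, adjusted 0.198) and a rho of -0.657 (exact permutation p = 0.175, adjusted 0.483). Id3 had an r of 0.906 against them (exact permutation p = 0.0597, adjusted 0.175) and a rho of 0.771 (exact permutation p = 0.103, adjusted 0.343). Knockout tumour 8 combined a haemoglobin share of 6.55% with little Lyl1. None of the remaining 8 members, Lyl1 included, passed against either share after adjustment. All shares and levels share the total of their library, which moves them together. No r is given within a genotype, with 3 tumours each, but in each genotype Tal1 and Lmo2 had the order of the haemoglobin share.

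**Figure D5:**
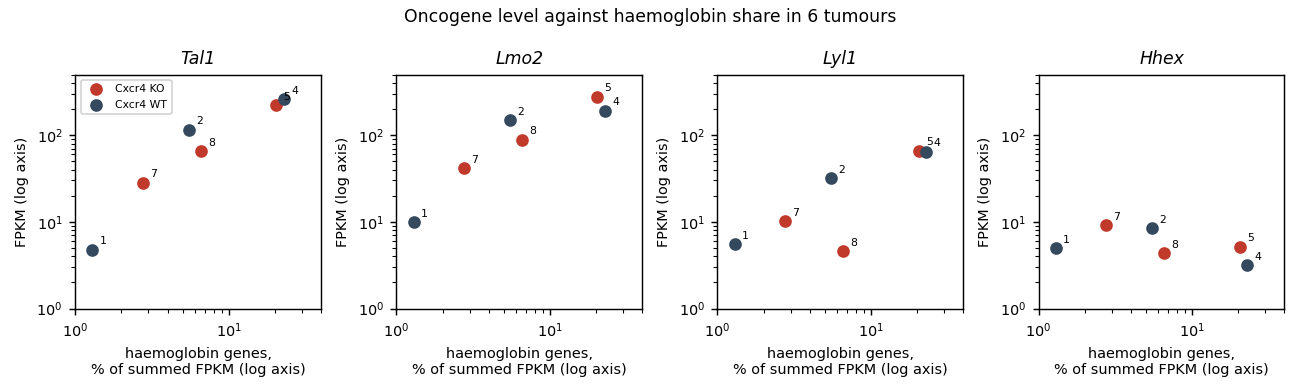
FPKM of Tal1, Lmo2, Lyl1 and Hhex in the 6 primary tumours against the percentage of summed FPKM taken by haemoglobin genes (all axes logarithmic), with Cxcr4 knockout in red, Cxcr4+/+ (WT) in dark blue and the tumour number at each point. Within each genotype Tal1 and Lmo2 climb with the haemoglobin share, Lyl1 does so except in knockout tumour 8, and Hhex does not.

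Red cell markers were read beside these genes. Klf1, a red cell transcription factor, had 428, 51.5 and 173 FPKM in knockout tumours 5, 7 and 8, against 0.145, 245 and 386 FPKM in Cxcr4+/+ tumours 1, 2 and 4. Gata1, the partner of Tal1 and Lmo2 in red cell precursors, had 129, 19.2 and 53.4 FPKM in knockout tumours, against 2.78, 98.4 and 157 FPKM in Cxcr4+/+ tumours. Gata1 had the same order among tumours as Tal1, and Klf1 had it apart from the highest pair. Their part in the levels of Tal1 and Lmo2 was not tested. Gata1 was named after its values were seen. Ex vivo Alas2, a red cell gene, was listed at 0 in all 6 samples, and Gata1 had 3.54 to 7.33 FPKM with AMD3100 and 3.25 to 6.16 FPKM with vehicle.

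Since the share of T cell mRNA differed between tumours, members were also read as a percentage of the summed FPKM of the 10 T cell markers, which was 2011, 4331 and 3443 in knockout tumours 5, 7 and 8, against 5436, 1475 and 1861 in Cxcr4+/+ tumours 1, 2 and 4. On this scale Tcf12 was 2.03%, 1.44% and 1.89% in knockout tumours, against 3.99%, 4.59% and 4.15% in Cxcr4+/+ tumours. Cxcr4+/+ tumour 1, far above the rest in FPKM, was no longer apart. Tcf12 averaged 1.79% ± 0.311 in knockout and 4.24% ± 0.315 in Cxcr4+/+ tumours (SD, n = 3 each). Id2 was 6.38%, 4.82% and 6.08% in knockout tumours, against 2.25%, 4.30% and 2.71% in Cxcr4+/+ tumours. Id3 was 2.88%, 4.26% and 3.70% in knockout tumours, against 2.58%, 2.59% and 2.54% in Cxcr4+/+ tumours. Id3, which overlapped in FPKM, did not overlap here, and Id1 lay lower in the knockout tumours without overlap. On this scale 2.61% of all genes lay higher in the knockout tumours without overlap and 4.15% lower. The remaining 6 members overlapped. This scale was chosen after seeing the data, and with FPKM rescaled to it limma called none of the 10 members and no other gene. The log2 change of Tcf12 was then -1.24 (SE 0.50, limma adjusted p = 1.000) while the median of all genes was -0.34.

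The genes around this system were read from lists. Beside every list count at an unadjusted p under 0.05 stand 21.5% of all genes ex vivo without pairing and 4.28% in the tumours. Of 21 cofactors and partners of E proteins, 15 were kept ex vivo. With pairing limma called 7 of them higher and 0 lower, where 9.96% of all genes were called higher and 9.92% lower. The paired calls over all genes, 2036 in number, came to 9 without pair 1, 7 without pair 2 and 1207 without pair 3, a limit on every paired count given here. Without pairing it called 0, with 6 at an unadjusted p under 0.05, and their median log2 change was 0.35, against 0.0022 for all genes. Crebbp and Ep300, the histone acetyltransferases that E proteins recruit, averaged 45.4 ± 3.60 and 34.1 ± 5.31 FPKM with AMD3100, and 28.8 ± 1.69 and 20.5 ± 1.69 FPKM with vehicle (SD, n = 3 each). Ssbp3, a stabiliser of LDB1 complexes, averaged 131 ± 13.7 FPKM with AMD3100 and 76.4 ± 8.58 FPKM with vehicle. Runx1, Gata3, Kat2b and Cbfa2t3 were the other 4. In the tumours limma called 0 of the 15 kept partners (2 at an unadjusted p under 0.05, Lmo4 and Cbfa2t3, both lower), with a median of -0.06, against -0.026 for all genes. Lmo4, a relative of Lmo2, averaged 58.0 ± 20.0 FPKM in knockout and 137 ± 67.5 FPKM in Cxcr4+/+ tumours.

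Of 16 genes that E proteins promote in lymphocytes, 12 were kept ex vivo. With pairing limma called 2 higher and 1 lower, where 9.96% of all genes were called higher and 9.92% lower. Without pairing it called 0, with 2 at an unadjusted p under 0.05, against 21.5% of all genes. Socs1, a cytokine signalling inhibitor, averaged 178 ± 45.6 FPKM with AMD3100 and 67.6 ± 13.6 FPKM with vehicle (log2 change 1.37, paired limma adjusted p = 0.0190). Foxo1 was the other called higher, and Rag2, a recombinase gene, was lower, at 14.3 ± 8.59 FPKM with AMD3100 and 23.3 ± 11.5 FPKM with vehicle (log2 change -0.74, paired limma adjusted p = 0.020). Ptcra, the pre-T cell receptor alpha chain and a known E protein target, averaged 91.6 ± 48.3 FPKM with AMD3100 and 170 ± 31.7 FPKM with vehicle and did not pass (paired limma adjusted p = 0.127). Dntt, which adds bases at receptor gene joints, had 332, 333 and 108 FPKM in AMD3100 samples 1, 2 and 3, against 419, 393 and 344 FPKM in vehicle samples 1, 2 and 3, and did not pass either (paired limma adjusted p = 0.133). Both genes lay lower with AMD3100 without overlap, as did 15.8% of all genes. Cdkn1a, a cell cycle inhibitor, averaged 54.0 ± 27.4 FPKM with AMD3100 and 21.7 ± 3.95 FPKM with vehicle, and Notch1 206 ± 39.7 FPKM with AMD3100 and 164 ± 7.60 FPKM with vehicle (SD, n = 3 each). Both lay higher with AMD3100 without overlap, as did 13.1% of all genes, and did not pass (paired limma adjusted p = 0.0598 for Cdkn1a and 0.0907 for Notch1). Reads from the Notch1-deltaE transgene may count towards Notch1 and were not separated. The list's median log2 change was 0.20.

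In the tumours 13 of these genes were kept, 0 were called (3 at an unadjusted p under 0.05, all lower), and the median log2 change was -0.65. Dntt had 10.6, 21.6 and 21.8 FPKM in knockout tumours 5, 7 and 8, against 404, 72.1 and 116 FPKM in Cxcr4+/+ tumours 1, 2 and 4. Rag1, a recombinase gene, had 25.8, 38.8 and 48.8 FPKM in knockout tumours, against 600 FPKM in Cxcr4+/+ tumour 1, 98.2 FPKM in tumour 2 and 56.6 FPKM in tumour 4. Neither gene overlapped between genotypes, and 5.20% of all genes lay lower in the knockout tumours in this way. Rag2 overlapped, with 1.46, 4.66 and 8.21 FPKM in knockout tumours, against 50.7, 7.49 and 7.52 FPKM in Cxcr4+/+ tumours. Ptcra had 6.98, 7.55 and 25.6 FPKM in knockout tumours, against 124, 23.6 and 57.8 FPKM in Cxcr4+/+ tumours, with overlap. The log2 changes were -3.06 for Dntt (SE 0.64), -2.01 for Rag1 (SE 0.82) and -2.21 for Ptcra (SE 0.70), each with a limma adjusted p of 0.986.

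The Egr genes, upstream of Id3, and other genes of the early response to antigen receptor signals were all kept ex vivo. With pairing limma called 7 of the 10 higher (9.96% of all genes), and without pairing 0 (3 at an unadjusted p under 0.05), with a median log2 change of 0.85. Egr1 averaged 52.7 ± 32 FPKM with AMD3100 and 20.4 ± 15.1 FPKM with vehicle (log2 change 1.51, paired limma adjusted p = 0.0197), and Cd69, an early activation marker, 16.2 ± 6.32 FPKM with AMD3100 and 3.69 ± 0.788 FPKM with vehicle (1.81, 0.0222). Egr2, Egr3, Nr4a1, Junb and Nab2 were the other 5. Id3 itself did not pass, with a log2 change of -0.18. In the tumours all 10 of these genes had a log2 change above 0, with a median of 0.72, and limma called 0 (4 at an unadjusted p under 0.05). Junb averaged 66.1 ± 13.2 FPKM in knockout and 37.5 ± 6.51 FPKM in Cxcr4+/+ tumours.

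Of 16 BMP and TGF-beta signalling genes, 12 were kept ex vivo, with a median of 0.35. With pairing 4 were called higher, where 9.96% of all genes were. Without pairing 0 were called, with 4 at an unadjusted p under 0.05, against 21.5% of all genes. The 4 called with pairing were Smad4, Smad5, Tgfbr2 and Tgfb1. Tgfb1 averaged 72.0 ± 22.7 FPKM with AMD3100 and 40.4 ± 9.90 FPKM with vehicle. In the tumours 0 of 11 were called (1 at an unadjusted p under 0.05, median 0.29), and Smad7, an inhibitor of the pathway, averaged 14.8 ± 7.20 FPKM in knockout and 4.97 ± 3.67 FPKM in Cxcr4+/+ tumours. Of 16 other T-ALL oncogenes and progenitor genes, 4 passed the filter ex vivo and 5 in the tumours, and 0 were called in either fit or experiment, with 1 at an unadjusted p under 0.05 in each unpaired fit. Their median log2 change was 0.36 ex vivo and 0.44 in the tumours. Myb averaged 274 ± 17.4 FPKM with AMD3100 and 229 ± 13.2 FPKM with vehicle, and 59.6 ± 20.5 FPKM in knockout and 145 ± 69.6 FPKM in Cxcr4+/+ tumours.

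Markers of other cells were read beside the members. With pairing limma called Nkg7 and Gzmb, cytotoxic granule genes, Itgb3 of the platelet list and Ly6d of the dendritic list higher with AMD3100, and Cd3g of the T cell list and Egfl7 of the endothelial list lower. These lists kept 4 cytotoxic, 1 platelet, 4 dendritic, 10 T cell and 2 endothelial genes. Of all genes 9.96% were called higher and 9.92% lower. Among the kept B cell (1), macrophage (1), stromal (7) and erythroid (2) markers limma called 0 with pairing. Without pairing 0 of these had an unadjusted p under 0.05, against 21.5% of all genes. No neutrophil or haemoglobin gene was kept. Nkg7 had 71.0, 98.4 and 264 FPKM in AMD3100 samples 1, 2 and 3, against 28.3, 41.1 and 42.3 FPKM in vehicle samples 1, 2 and 3, so it was higher in the same samples as Id2. Ncr1, an NK cell receptor gene, was listed at 0 in all 6. The 8 NK and cytotoxic markers summed to 2062, 1544 and 3690 FPKM in AMD3100 samples 1, 2 and 3. In vehicle samples 1, 2 and 3 they summed to 2273, 1290.5 and 2903 FPKM, so the groups overlapped. In the tumours 0 markers were called, with 3 at an unadjusted p under 0.05, 1 each of the B cell, dendritic and macrophage lists. The 8 NK and cytotoxic markers summed to 758, 1803 and 2323 FPKM in knockout tumours 5, 7 and 8, against 2109, 864 and 551 FPKM in Cxcr4+/+ tumours 1, 2 and 4, with overlap. Ncr1 had 11, 7.36 and 15.4 FPKM in knockout tumours, against 19.1, 2.52 and 1.18 FPKM in Cxcr4+/+ tumours. The 9 B cell markers summed to 42.5, 50.4 and 56.3 FPKM in knockout tumours, against 37.7, 28.7 and 12.5 FPKM in Cxcr4+/+ tumours. The 11 stromal markers without Thy1 summed to 0.977 to 2.77 FPKM in knockout tumours, against 5.44 to 22.9 FPKM in Cxcr4+/+ tumours, with 8 to 10 of them listed at 0. The B cell and stromal sums thus did not overlap between genotypes. Cd22 was most of the B cell sum in every tumour. As a share of all FPKM, B cell markers took 0.00731%, 0.0114% and 0.0145% in knockout tumours 5, 7 and 8. In Cxcr4+/+ tumours 1, 2 and 4 they took 0.0102%, 0.00763% and 0.00227%, with overlap. Without Pdgfrb, the other 10 stromal markers summed to 0.793, 1.27 and 0 FPKM in knockout tumours. In Cxcr4+/+ tumours they summed to 0.227, 4.35 and 13.8 FPKM, with overlap. The part of B cells and stroma in the levels of the members was not tested.

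The genes whose log2 level was most like that of a member over the 6 samples of a table are given as a description, since many genes share such patterns at this number of samples. Ex vivo Id1 and Id3 were each other's closest gene (Pearson r = 0.999), and r with Lyl1 was -0.998 for Id1. The closest to Id2 were Smap1 (0.996) and Was (0.995), to Tcf3 Smap2 (0.997) and Socs1 (0.994), to Tcf12 Alg3 and Mcoln1 (both 0.998), and to Lyl1 Shisa2 (0.999) and Fcer1g (0.998). Next to Id1 stood Tmem223 (0.998), next to Id3 Amotl1 (0.999), and to Tcf4 Nxpe3 (0.993) and Man2a1 (0.990). In the tumours the closest to Tal1 were Ank1 (0.999), a red cell membrane gene, and Odc1 (0.998). St5 and Ermap, a red cell membrane gene, were closest to Lmo2 (both 0.998), and Hbq1b (0.997), a globin gene, and Mrps14 (0.996) to Lyl1. For Id2 they were Batf (0.997) and Tmsb10 (0.995), for Id3 Traf3 (0.998) and Tmem43 (0.994), for Tcf3 Mns1 and Ssrp1 (both 0.995), and for Tcf12 Stxbp5 and Usp11 (both 0.994). Id1 had Cnot1 (0.996) and Ccdc167 (0.993), Tcf4 BC003965 (0.987) and Gm2382 (0.975), and Hhex Pttg1ip (0.986) and Atp6v0e (0.965).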

How the data were processed

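Per the labels' protocols, poly-A RNA went into strand-specific (dUTP) libraries that were sequenced from a single end for 50 bases. CASAVA, TopHat and build mm9 are named in the submitters' processing notes. The authors deposited FPKM values in 2 tables of 6 samples, scaled separately, with no program or annotation named in the sources used here. Read totals were not used here, and relative depth came from the steps between values under 5 FPKM.

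The test was run on log2(FPKM + 1), which understates fold changes of low genes. A gene entered a comparison when its 6 samples averaged 1 FPKM or more (10245 genes ex vivo, 10741 in the tumours). limma 3.58.1 under R 4.3.3 was fitted to each table by itself, two-sided, with a variance trend. It was tried on simulated data in which all genes shared the same residual spread, set below the median of these samples. That trial gives no error rate for these data. P-values were adjusted by Benjamini-Hochberg over all genes entered, and a gene was called below 0.05. Deviations of same-numbered ex vivo samples from their group means correlated (r = 0.467, 0.579 and 0.619, all above the limit of 0.1), so they were taken as pairs, although the labels leave unsaid what a number marks. A fit with pairing as a block stands beside the one without. An exact permutation test of 3 against 3 cannot give a p under 0.1.

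Members, gene lists and tests were chosen with earlier results of these data known. Genes to name were the members, up to 3 genes of each list with the smallest p, called genes of each list and the 2 genes most like each member (mean of at least 5 FPKM), and not all are printed. A haemoglobin symbol was added to its list after the files were seen. Alternatives were pseudocounts of 0.1 and 0.5, filters, scalings, variance models, thresholds, left-out samples, the block and, in the tumours, rescaling without haemoglobin genes and the haemoglobin share as a covariate. Rescaling to T cell markers, leaving out the 2 haemoglobin-rich tumours, and the block with TMM, quantile or length corrections were chosen after seeing the data.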

Additional observations from a re-analysis of the deposited data

Results flagged for a closer look

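Tcf12 differed in opposite directions in the comparison of AMD3100 with vehicle and that of Cxcr4 knockout with Cxcr4+/+ tumours. With AMD3100 its log2 change was 0.22 (limma adjusted p = 0.232). Every AMD3100 sample was above every vehicle sample, a pattern found in 13.1% of all genes. In the knockout tumours the change was -0.91 (limma adjusted p = 0.986), and -0.39 without Cxcr4+/+ tumour 1. Every knockout tumour was below every Cxcr4+/+ tumour, a pattern found in 5.20% of all genes. Neither passed the adjusted threshold, the difference between the experiments was not tested, and the tables were normalized separately.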

How the results depend on the processing

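The count of genes called with AMD3100 was 13 and became 188 with a filter of 5 FPKM, 8 with no filter, 3 with quantile normalisation, 1 without a variance trend, 847 at an adjusted p under 0.10 and 3 to 5 without any single sample. With the replicate block it was 2036, with the block and median-of-ratios scaling 2033, quantile normalisation 1914, TMM 1956 and length correction 1723, and 9, 7 and 1207 without pair 1, 2 and 3. In the tumours the 4 calls became 0 with no filter (538 at an unadjusted p under 0.05), 7 with the haemoglobin share as a covariate, 0 after rescaling to T cell markers (289 at an unadjusted p under 0.05), and 0 to 4 without any single tumour, with 0 without knockout 7 or knockout 8 (325 and 275 at an unadjusted p under 0.05). The cause was not tested. No paired analysis was possible in the tumours because the genotypes share no numbers. Beyond Tcf3 and Id2, the block changed the call of no member. At an adjusted p under 0.10 Tcf3 was called without the block. Tcf12 was called in 1 setting, the block with quantile normalisation (log2 0.37, limma adjusted p = 0.0277).

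Members that reversed were called in no setting. Over the fits without 1 ex vivo sample, Id1 ranged from -1.33 to 1.36, Id3 from -1.49 to 1.31, Lyl1 from -1.03 to 1.00 and Tcf4 from -0.015 to 0.74. They turned without AMD3100 sample 3 (Id1 1.36, Id3 1.31, Lyl1 -1.03), vehicle sample 1 (0.50, 0.55 and -0.33) and vehicle sample 2 (0.42, 0.42 and -0.37, Tcf4 -0.015). Lyl1 was -0.20 with a pseudocount of 0.1, and Id1 0.16 in the block without pair 3. Over the fits without 1 tumour, Tal1 ranged from -1.22 to 1.53, Lmo2 from -0.73 to 1.33, Lyl1 from -1.61 to 0.18, Tcf4 from -0.36 to 0.058 and Hhex from -0.12 to 0.47. Tal1 and Lmo2 turned without knockout 5 (-0.35 and -0.14) and without Cxcr4+/+ 1, Tcf4 and Hhex without knockout 7 (0.058 and -0.11), Lyl1 without knockout 8 (0.18) and Cxcr4+/+ 4 (0.14), and Hhex without Cxcr4+/+ 4. Tal1 was -0.061 with the covariate. Hhex was -0.16 after rescaling to T cell markers and -0.036 without the 2 haemoglobin-rich tumours. Few reads limit Tal1, Lmo2 and Lyl1 ex vivo.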
